A study of Homo sapiens with 18 samples.

Results

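The genes described are 9 members of the NRF2 antioxidant pathway, namely NFE2L2, KEAP1, NQO1, HMOX1, GCLM, GCLC, TXNRD1, SRXN1 and OSGIN1. They were chosen by symbol with earlier results of these data known, and all 9 were found among the 26668 genes measured. The same holds for the choice of the gene lists below, so counts set beside all genes are descriptions only. The study depleted OFD1, a protein of centrioles and the base of the cilium, in PANC-1, MIA PaCa-2 and PaTu 8988T, established lines from human pancreatic cancers, and sequenced the RNA. Each line has 3 libraries labelled shOFD1, in which doxycycline induced a short hairpin RNA against OFD1 for 72 h, and 3 libraries titled shControl, labelled WT and without treatment.

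According to the study's methods, the lines were infected with a lentivirus carrying a doxycycline-switched hairpin and received DMSO or doxycycline. Which of the hairpins described there was used for these libraries is not given in the sources used here. By their labels, the controls could carry the same hairpin uninduced or a control hairpin. An effect of doxycycline itself, of time in culture or of separately made cells cannot be told apart from that of the knockdown. Replicates 2 and 3 of both PaTu 8988T groups carry other line names in their source labels, and the titles were followed. No label says that the replicates were separate cultures, so p-values measure the spread between these libraries, which may be technical.

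NFE2L2 encodes NRF2, a transcription factor that switches on genes for glutathione synthesis, thioredoxin recycling, quinone reduction and heme breakdown. In unstressed cells, KEAP1 hands NRF2 to the CUL3 ubiquitin ligase and it is degraded, whereas oxidants modify KEAP1 and NRF2 accumulates, pairs with small MAF proteins and binds antioxidant response elements. BACH1, a repressor released by heme, competes for the same elements and holds HMOX1 low. Because NRF2 is controlled mainly as a protein, transcript levels of NFE2L2 and KEAP1 do not give the activity of the pathway.

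The files hold FPKM, in which the reads of a gene are divided by the gene's length and by the depth of the library. Counted reads recovered from these values ran from 32486479 to 39797537 per library, and a member had between 93 and 38291 reads in a library. The targeted gene OFD1 was at 5.50, 5.12 and 5.67 FPKM in PANC-1 controls and at 2.80, 2.27 and 2.58 FPKM after knockdown (log2 fold change -1.07 ± 0.090 SE). In PaTu 8988T it was at 2.14, 1.93 and 2.12 FPKM against 0.986, 0.894 and 0.854 FPKM (-1.10 ± 0.10 SE), and in MIA PaCa-2 at 3.09, 2.27 and 3.20 FPKM against 1.76, 1.74 and 1.97 FPKM (-0.61 ± 0.16 SE). OFD1 did not overlap between the groups of any line, and its adjusted p in MIA PaCa-2 (0.023, limma) rose to between 0.061 and 0.090 when any library but control replicate 2 was left out. That control stood apart from the other MIA PaCa-2 controls, so its line is also given without it. KRT8 and KRT18, keratins of simple epithelium, were above 300 FPKM in the controls of all lines, whereas the control means of EPCAM and CDH1 were below 0.04 FPKM in MIA PaCa-2 and that of KRT19 was below 0.01 FPKM in PaTu 8988T. Of 7 markers of blood, endothelial and fibroblast cells, DCN, PECAM1 and VWF were at or near 0, and CD68 made up most of their sum, which ran from 32.1 to 37.8 FPKM in PANC-1 controls and from 17.3 to 19.7 FPKM after knockdown, from 49.4 to 67.4 and from 73.3 to 77.2 FPKM in MIA PaCa-2, and from 13.7 to 13.9 and from 9.83 to 11.7 FPKM in PaTu 8988T. PTPRC, the common leukocyte antigen, was near 0 in PANC-1 and PaTu 8988T but at 4.45, 2.32 and 3.76 FPKM in MIA PaCa-2 controls and at 6.22, 5.89 and 5.90 FPKM after knockdown. The summed level of VIM and ZEB1, markers of a mesenchymal state, was nearly all VIM and moved without overlap in each line. It went from between 1399 and 1415 to between 790 and 813 FPKM in PANC-1. The sum went from between 3480 and 3589 to between 4785 and 4975 FPKM in MIA PaCa-2, and from between 771 and 804 to between 584 and 616 FPKM in PaTu 8988T. ZEB1 alone overlapped in PANC-1 (log2 fold change -0.02, limma adjusted p = 0.73). It rose in MIA PaCa-2 (0.78, limma adjusted p = 0.015) and was at -0.17 in PaTu 8988T (limma adjusted p = 0.11). The sum of 6 epithelial markers was lower after knockdown without overlap in MIA PaCa-2 (1616 to 2197 against 1359 to 1392 FPKM). It was also lower without overlap in PaTu 8988T (1045 to 1069 against 838 to 909 FPKM), and overlapped in PANC-1. This sum was mostly KRT8 and KRT18, and its members did not move alike. In PANC-1, KRT19 fell (log2 fold change -0.997, limma adjusted p = 2.61e-09) and KRT18 fell slightly (-0.062). KRT8 (0.263), EPCAM (0.488) and CDH1 (0.322) rose there, and KRT7 did not pass. In MIA PaCa-2, KRT8 fell (-0.751, limma adjusted p = 0.0071). KRT18 (-0.130, limma adjusted p = 0.31) and KRT19 (0.298, 0.11) did not pass there. In PaTu 8988T, KRT8 (-0.272) and KRT18 (-0.269) fell. The part of these markers in the results was not tested.

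The 9 genes covered a wide range of levels in the controls. In PANC-1, TXNRD1, the cytosolic thioredoxin reductase, was highest at 88.4 ± 2.97 FPKM (SD, n = 3), followed by NFE2L2 at 67.6 ± 0.382 FPKM and NQO1 at 51.8 ± 2.32 FPKM. GCLM at 4.58 ± 0.307 FPKM and OSGIN1 at 3.13 ± 0.354 FPKM were lowest, and none of the 9 shared a value range with its neighbour in this order. In MIA PaCa-2, TXNRD1 at 177 ± 17.7 FPKM and NQO1 at 168 ± 18.3 FPKM were on top and overlapped, the ranges of KEAP1, GCLM and NFE2L2 overlapped one another, those of GCLM and NFE2L2 overlapped with HMOX1, and that of OSGIN1 with GCLC. In PaTu 8988T, HMOX1 was first at 489 ± 11.4 FPKM, against 16.4 ± 1.92 FPKM in MIA PaCa-2 and 21.4 ± 0.904 FPKM in PANC-1. TXNRD1 at 229.6 ± 2.70 FPKM, NQO1 at 90.5 ± 0.938 FPKM and SRXN1 at 45.3 ± 0.277 FPKM followed there, and OSGIN1 at 5.41 ± 0.734 FPKM was lowest, again with no overlap between neighbours.

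HMOX1 encodes heme oxygenase 1, which breaks heme down to biliverdin, carbon monoxide and iron. Its control mean in PaTu 8988T was 29.9 times that of MIA PaCa-2 and 22.9 times that of PANC-1, and in the knockdown libraries it was still 7.65 times that of MIA PaCa-2. The control mean of NFE2L2 in PaTu 8988T was 0.337 times that of PANC-1 and 1.09 times that of MIA PaCa-2. These levels are side by side as a description only, because the table of PANC-1 was made with other gene lengths for 3 of the 9 genes. For HMOX1, NFE2L2, KEAP1, NQO1, SRXN1 and OSGIN1, the length was the same in all lines.

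The 9 genes lie apart in the genome, by RefSeq positions on GRCh38.p14. NFE2L2 is at chr2:177230303-177264727, KEAP1 at chr19:10486125-10503356 and NQO1 at chr16:69709401-69726560, all on the minus strand. HMOX1 is at chr22:35381096-35394207, TXNRD1 at chr12:104215779-104350307 and OSGIN1 at chr16:83953240-83966332, all on the plus strand. GCLM at chr1:93885199-93909430, GCLC at chr6:53497341-53545101 and SRXN1 at chr20:646615-653200 are on the minus strand. The values are sums over the exons of each gene.

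**Figure D1:**
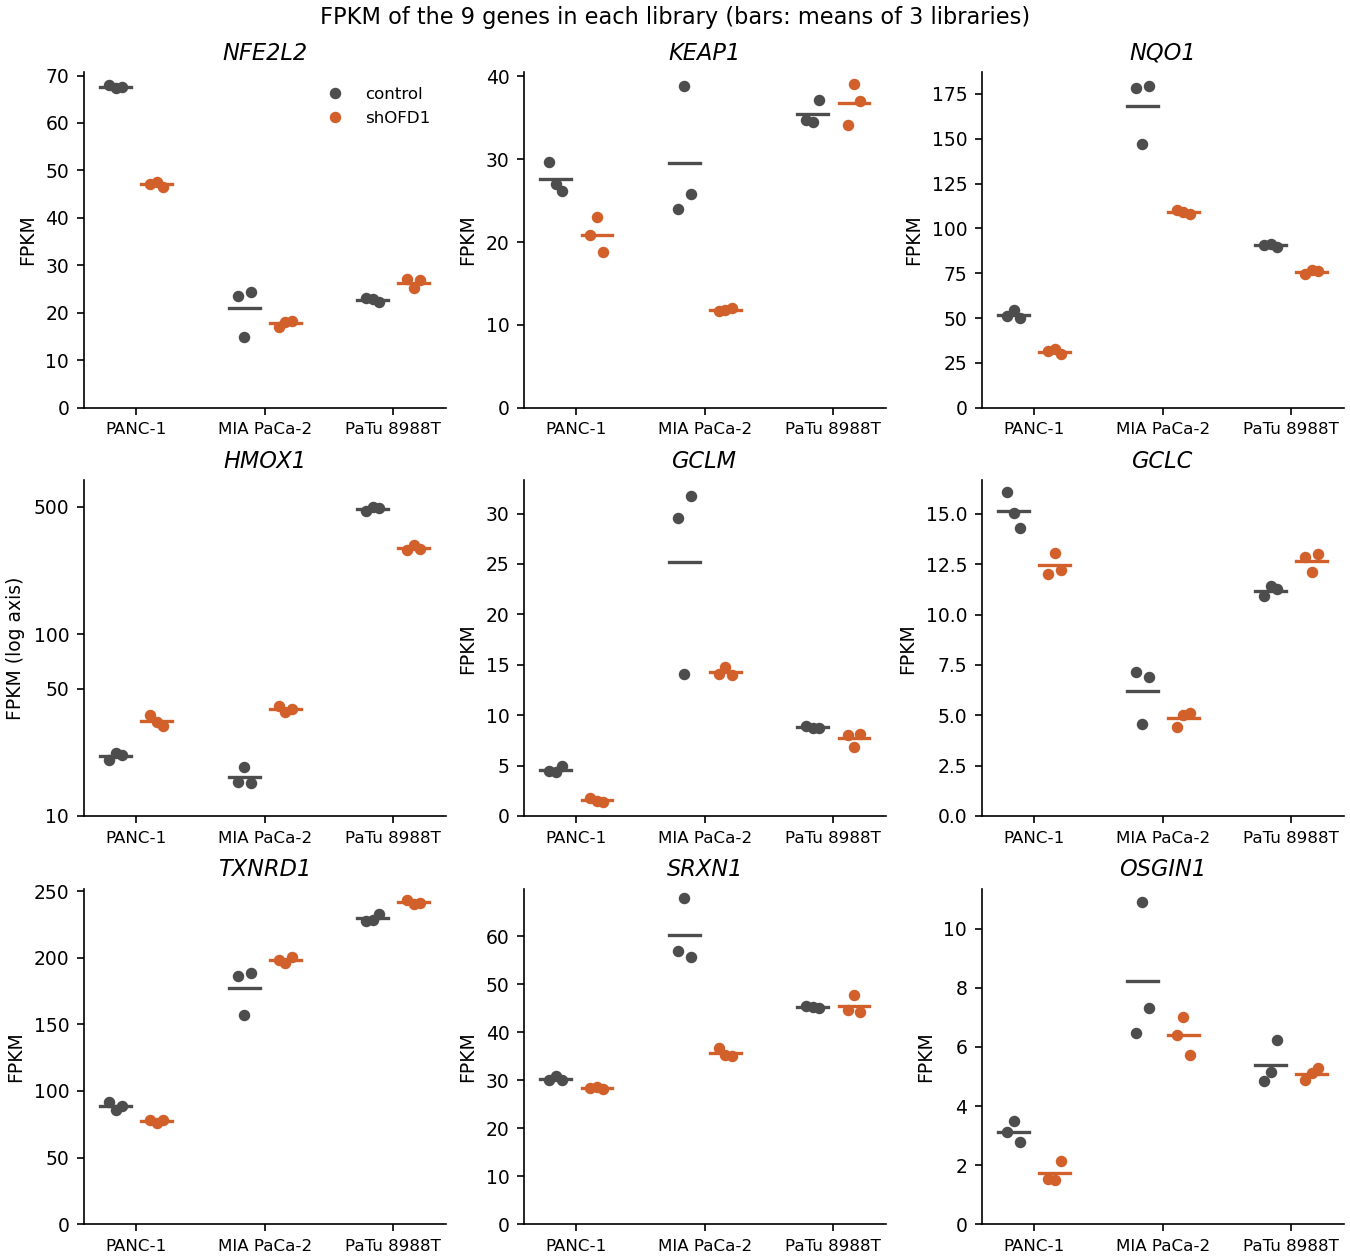
FPKM of each of the 9 genes (vertical axes, logarithmic for HMOX1) in the 3 control (grey) and 3 shOFD1 (orange) libraries of each line, with bars at the means. HMOX1 rose in PANC-1 and MIA PaCa-2 and fell in PaTu 8988T, where its control libraries lie between 476 and 498 FPKM.

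The promoters of the members were read for the letters TGACNNNGC, the core of the antioxidant response element, on both strands. RefSeq (GRCh38.p14) gave windows of 300 bases, from 250 before to 50 after a start, for 8 of the 9 genes (11 windows), with no entry for HMOX1. The letters occurred in 4 of these 11 windows, and in 13.3% of all 35116 windows. They were found at GCLM, the modifier subunit of the enzyme that starts glutathione synthesis, in both windows of TXNRD1, and in 1 of the 2 windows of KEAP1. The windows of NFE2L2, NQO1, GCLC, SRXN1 and OSGIN1 did not hold these letters. The matches are printed 5′ to 3′ with 10 bases on each side and the matched letters in capitals, because GCLM had the largest fall in PANC-1 and KEAP1 the largest in MIA PaCa-2. Without control replicate 2 of MIA PaCa-2, the log2 fold change there was -1.10 for GCLM and -1.07 for KEAP1, so KEAP1 was then not the largest. The GCLM match lies at chr1:93909446-93909474 (plus strand, matched letters from 34 bases before the start of this minus-strand gene). Those of KEAP1 lie at chr19:10502784-10502812 (plus strand) and chr19:10502807-10502835 (minus strand). Those of TXNRD1 lie at chr12:104215670-104215698 (plus strand), chr12:104215761-104215789 (minus strand) and, at its other start, chr12:104286920-104286948 (minus strand).
GCLM: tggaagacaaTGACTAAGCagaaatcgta
KEAP1, plus strand: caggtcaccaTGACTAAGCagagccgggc
KEAP1, minus strand: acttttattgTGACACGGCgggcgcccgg
TXNRD1, plus strand: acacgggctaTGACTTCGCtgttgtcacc
TXNRD1, minus strand: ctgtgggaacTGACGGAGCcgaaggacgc
TXNRD1, other start: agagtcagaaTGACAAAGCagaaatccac

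The match at GCLM and the plus-strand match at KEAP1 had the same 9 letters. The knockdown effects on these 3 genes were not alike, as given below gene by gene, and a match is not evidence that NRF2 binds there.

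For each line, log2(FPKM + 0.1) was fitted with limma over the genes with a mean of at least 1 FPKM, and p-values were adjusted by Benjamini-Hochberg. All 9 members passed this filter in every line, none of them through 1 group alone. A change is called here at an adjusted p below 0.05, and changes above 2-fold are named as such. Because 3 libraries against 3 cannot give an exact permutation p below 0.1, non-overlap of the groups is given as a description.

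In PANC-1, all 9 members passed the adjusted p (7 in 1 fit of all 18 libraries), and 8 of them fell. Of all 10902 genes tested in the fit of this line alone, 32.2% fell and 40.1% rose at this threshold. The 8 members that fell had all knockdown libraries below all controls (33.4% of all genes), and HMOX1 had all of them above (41.7%). Beyond 2-fold, 1 member (GCLM) was lower and 0 were higher, against 4.84% and 1.75% of all genes. The median log2 fold change of the members was -0.40, and that of all genes 0.06.

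In MIA PaCa-2, 4 of the 9 members passed. KEAP1, NQO1 and SRXN1 fell (21.7% of 10758 genes fell), and HMOX1 rose (18.7% rose). The groups did not overlap for these 3 lower genes (31.3% of all genes) and for HMOX1 and TXNRD1 on the higher side (28%). KEAP1 fell and HMOX1 rose beyond 2-fold, as did 3.68% and 4.07% of all genes. Without control replicate 2, 8 members passed, 6 of them lower and 2 higher, against 39.8% and 35.4% of all genes. Beyond 2-fold, 2 were then lower and 1 higher, against 3.78% and 4.17% of all genes.

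In PaTu 8988T, 4 of the 9 members passed, NQO1 and HMOX1 lower (18.5% of 10698 genes) and NFE2L2 and GCLC higher (20.9%). GCLM was also non-overlapping and lower (24% of all genes), and TXNRD1 non-overlapping and higher (27.9%), without passing the test. By limma, 0 members were called beyond 2-fold, 6 had an unadjusted p under 0.05, and 0.841% and 0.159% of all genes were called lower and higher beyond 2-fold. The median of the members was 0.01, and that of all genes 0.03.

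**Figure D2:**
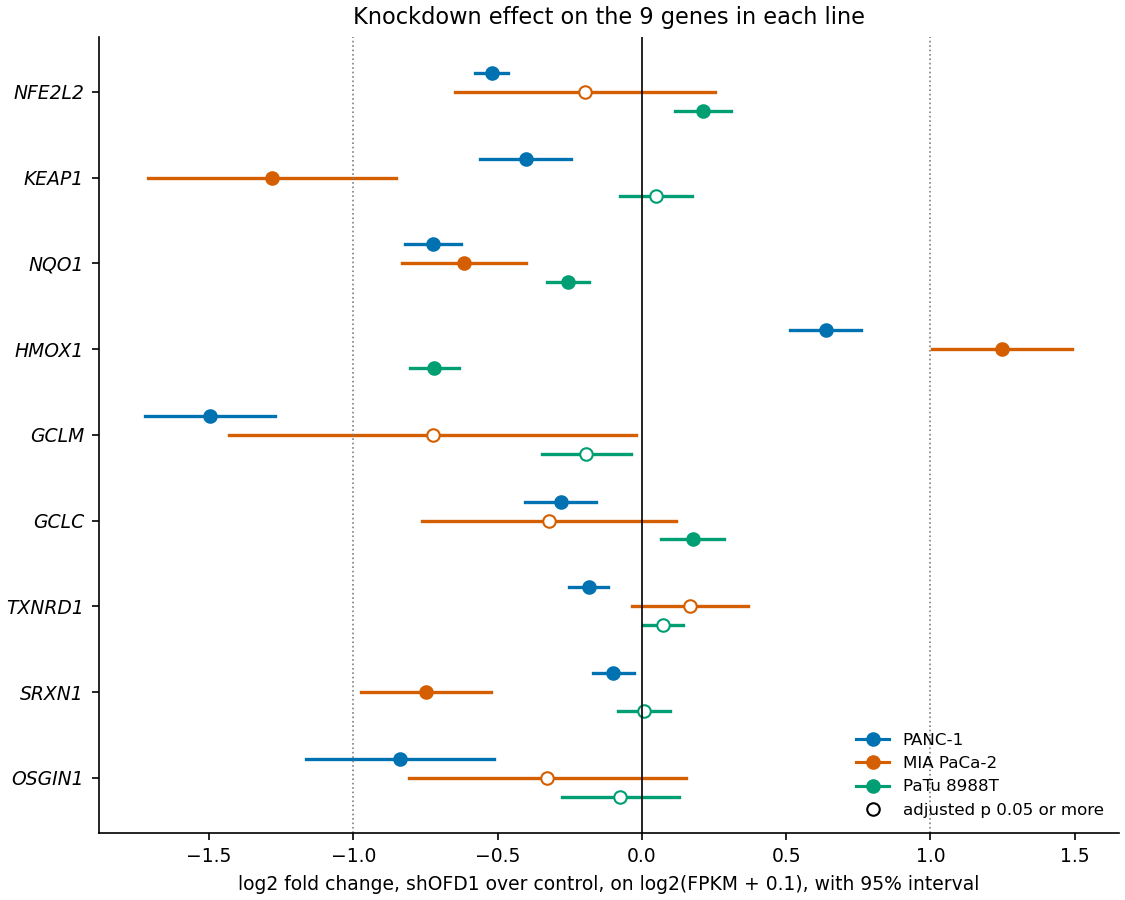
Log2 fold change of shOFD1 over control with its 95% interval (horizontal axis, on log2(FPKM + 0.1)) for the 9 genes in PANC-1 (blue), MIA PaCa-2 (orange) and PaTu 8988T (green). Filled points passed the adjusted p of 0.05 and dotted lines mark 2-fold. HMOX1 is the only one of the 9 with filled points beyond 1.5-fold on both sides of 0, and GCLM in PANC-1 lies farthest to the left at -1.50.

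The regulators come first. NFE2L2 fell in PANC-1 from 68.0, 67.3 and 67.5 FPKM to 47.1, 47.7 and 46.5 FPKM, a log2 fold change of -0.52 ± 0.026 SE (limma adjusted p = 5.98e-08). In PaTu 8988T it rose from 23.1, 23.0 and 22.2 FPKM to 27.1, 25.2 and 26.9 FPKM (0.21 ± 0.044 SE, limma adjusted p = 0.0046, but 0.25 in 1 fit of all 18 libraries). Both pairs of groups were apart, with spreads within a group far smaller than the gap in PANC-1 only. In PaTu 8988T the highest control was at 23.1 FPKM, and the knockdown libraries ran from 25.2 to 27.1 FPKM. In MIA PaCa-2 the controls were at 23.5, 14.9 and 24.4 FPKM and the knockdown libraries at 17.1, 18.1 and 18.3 FPKM, so that control replicate 2 lay below all knockdown libraries and the other controls above them. The log2 fold change was -0.20 (adjusted p = 0.44) with that control and -0.42 (adjusted p = 2.35e-05) without it.

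KEAP1, the adaptor that targets NRF2 for degradation, had its largest change in MIA PaCa-2. Its controls there were at 24.0, 38.8 and 25.8 FPKM and the knockdown libraries at 11.6, 11.8 and 12.0 FPKM, a 2.43-fold fall (log2 fold change -1.28 ± 0.18 SE, limma adjusted p = 0.0024). The high control replicate 2 widened the gap, and leaving it out gave a log2 fold change of -1.07. In PANC-1, KEAP1 fell from 29.6, 27.1 and 26.1 FPKM to 20.8, 23.0 and 18.8 FPKM (-0.40 ± 0.071 SE, limma adjusted p = 0.00053). In PaTu 8988T it was at 34.8, 34.5 and 37.2 FPKM against 34.1, 39.1 and 37.0 FPKM, and these overlapped (0.05 ± 0.055 SE, adjusted p = 0.51).

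The ratio of KEAP1 to NFE2L2 within a library was lower after knockdown in MIA PaCa-2. It was 1.02, 2.60 and 1.06 in the controls of that line and 0.681, 0.650 and 0.658 in the knockdown libraries, which did not overlap. In PANC-1 the ratio was 0.408 ± 0.0245 (SD, n = 3) in controls and 0.443 ± 0.0389 after knockdown, and in PaTu 8988T 1.56 ± 0.0982 and 1.40 ± 0.148, with overlap in both lines.

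Glutathione synthesis starts with glutamate-cysteine ligase, whose catalytic subunit is GCLC and whose modifier subunit is GCLM. GCLM in PANC-1 was at 4.41, 4.38 and 4.93 FPKM in controls and at 1.75, 1.50 and 1.43 FPKM after knockdown, a 2.82-fold fall (log2 fold change -1.50 ± 0.10 SE, limma adjusted p = 4.89e-07). This put it at the 1.46th percentile of all fold changes of the line. In PaTu 8988T its values were 8.93, 8.71 and 8.74 FPKM against 8.06, 6.89 and 8.18 FPKM, lower in all knockdown libraries but short of the threshold (-0.19 ± 0.069 SE, adjusted p = 0.051). Leaving out knockdown replicate 1 or 3 there moved the adjusted p to 0.043 or 0.045. Knockdown replicate 2 was the lowest of its group, at 6.89 FPKM. Of 14 alternatives, this fall passed in 4. Over all of them, its log2 fold change ran from -0.24 to -0.11 and its limma adjusted p from 0.043 to 0.57.

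GCLM in MIA PaCa-2 rested on a single library. The controls were at 29.6, 14.1 and 31.8 FPKM and the knockdown libraries at 14.1, 14.7 and 14.0 FPKM, so control replicate 2 sat among the knockdown libraries. With it, the log2 fold change was -0.72 ± 0.30 SE (limma adjusted p = 0.092), and without it -1.10 (adjusted p = 1.27e-07), which is beyond 2-fold. GCLC showed smaller effects. It fell in PANC-1 from 16.1, 15.1 and 14.3 FPKM to 12.0, 13.0 and 12.2 FPKM (-0.28 ± 0.055 SE, limma adjusted p = 0.0010) and rose in PaTu 8988T from 10.9, 11.4 and 11.3 FPKM to 12.9, 12.1 and 13.0 FPKM (0.18 ± 0.049 SE, adjusted p = 0.019). The rise lost the threshold when control replicate 1 (adjusted p = 0.073) or knockdown replicate 3 (0.080) was left out. In 1 limma fit of all 18 libraries, the adjusted p of GCLC was 0.34 in PaTu 8988T and 0.061 in PANC-1. In MIA PaCa-2, GCLC was at 7.13, 4.56 and 6.88 FPKM against 4.42, 5.02 and 5.10 FPKM, and its log2 fold change was -0.32 with control replicate 2 (adjusted p = 0.21) and -0.52 without it (adjusted p = 0.00020).

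The ratio of GCLM to GCLC was lower after knockdown, without overlap, in 2 lines. It was 0.275, 0.291 and 0.345 in PANC-1 controls and 0.145, 0.115 and 0.117 after knockdown. In PaTu 8988T it was 0.820, 0.764 and 0.775 against 0.625, 0.570 and 0.628, again with no overlap. In MIA PaCa-2 the ratio was 4.15, 3.09 and 4.62 in controls and 3.19, 2.94 and 2.75 after knockdown, with control replicate 2 inside the knockdown range. The ratios of different lines are not compared, since GCLC and GCLM were read over other lengths in PANC-1.

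NQO1, a quinone reductase that is a standard readout of NRF2, was the member that fell in all 3 lines. It went from 51.3, 54.4 and 49.8 FPKM to 31.4, 32.6 and 30.0 FPKM in PANC-1, a 1.65-fold fall (log2 fold change -0.72 ± 0.043 SE, limma adjusted p = 1.86e-07). In MIA PaCa-2 it went from 178, 147 and 179.5 FPKM to 110.4, 109 and 108 FPKM (-0.62 ± 0.090 SE, adjusted p = 0.0027). The fall in PaTu 8988T was smaller, from 90.7, 91.3 and 89.4 FPKM to 74.7, 76.6 and 76.1 FPKM (-0.25 ± 0.033 SE, adjusted p = 0.00034). Knockdown and control libraries were apart in each line, also for control replicate 2 of MIA PaCa-2, and no library left out ended any of these calls. The share of all genes that fell in all 3 lines is not given here.

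HMOX1 changed in all 3 lines and not in the same direction. In MIA PaCa-2 it rose from 15.3, 18.6 and 15.2 FPKM to 40.4, 37.3 and 38.9 FPKM, 2.38-fold (log2 fold change 1.25 ± 0.10 SE, limma adjusted p = 0.00037). In PANC-1 it rose from 20.4, 22.1 and 21.7 FPKM to 36.1, 32.9 and 31.2 FPKM (0.64 ± 0.055 SE, adjusted p = 3.09e-06). In PaTu 8988T, where it started far higher, it fell from 476, 498 and 494 FPKM to 289, 309 and 293 FPKM, 1.65-fold (-0.72 ± 0.038 SE, adjusted p = 1.99e-06). The groups were apart in each line, and the fall in PaTu 8988T lay at the 2.26th percentile of all fold changes of that line.

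The thioredoxin branch was represented by TXNRD1 and by SRXN1, the sulfiredoxin that repairs oxidized peroxiredoxins. SRXN1 fell in MIA PaCa-2 from 56.8, 67.9 and 55.7 FPKM to 36.7, 35.1 and 35.0 FPKM (log2 fold change -0.75 ± 0.095 SE, limma adjusted p = 0.0016). In PANC-1 it was at 30.0, 30.8 and 30.1 FPKM against 28.3, 28.5 and 28.1 FPKM, apart but by little (-0.10 ± 0.032 SE, adjusted p = 0.017, or 0.057 without control replicate 2 and 0.18 in 1 fit of all libraries). In PaTu 8988T it overlapped, at 45.5, 45.3 and 45.0 FPKM against 44.7, 47.8 and 44.1 FPKM. The exons of SRXN1 share 85.0% of their bases with another annotated gene on the same strand, so reads could have been split or left uncounted there. That gene is not among the genes measured, so whether it took part in the counting is not known. Smaller same-strand overlaps were those of NFE2L2 (17.6%), OSGIN1 (13.9%) and GCLC (6.12%). TXNRD1 fell slightly in PANC-1, from 91.3, 85.4 and 88.5 FPKM to 78.6, 76.2 and 78.5 FPKM (-0.18 ± 0.030 SE, adjusted p = 0.00033). Its knockdown libraries lay above the controls in MIA PaCa-2 (0.17 ± 0.084 SE, adjusted p = 0.16, or 0.08 with adjusted p = 0.0039 without control replicate 2) and in PaTu 8988T (0.07 ± 0.031 SE, adjusted p = 0.081).

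OSGIN1, an oxidative stress-induced growth inhibitor, was the lowest member in the controls of PANC-1 and PaTu 8988T. In PANC-1 it fell from 3.12, 3.49 and 2.78 FPKM to 1.54, 1.48 and 2.15 FPKM (log2 fold change -0.84 ± 0.15 SE, limma adjusted p = 0.00050). Knockdown replicate 3 was the highest of its group and still below all controls, and without it the fall was just past 2-fold (limma adjusted p = 8.72e-05). The groups overlapped in MIA PaCa-2, at 6.47, 10.9 and 7.31 FPKM against 6.42, 7.02 and 5.73 FPKM, and in PaTu 8988T, at 4.84, 5.14 and 6.24 FPKM against 4.89, 5.12 and 5.28 FPKM. Neither passed the test (adjusted p = 0.24 and 0.54).

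Control replicate 2 of MIA PaCa-2 decided several of these values. It was at 0.460 times the mean of the other controls for GCLM, 0.624 times for NFE2L2 and 0.652 times for GCLC, and at 1.56 times for KEAP1 and 1.58 times for OSGIN1. For GCLM it was as low as the knockdown libraries, whose mean was 0.466 times that of the other controls. For KEAP1 it lay on the side away from the knockdown libraries (0.475 times), and OFD1 itself was at 0.721 times. Why this library stood apart was not tested.

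**Figure D3:**
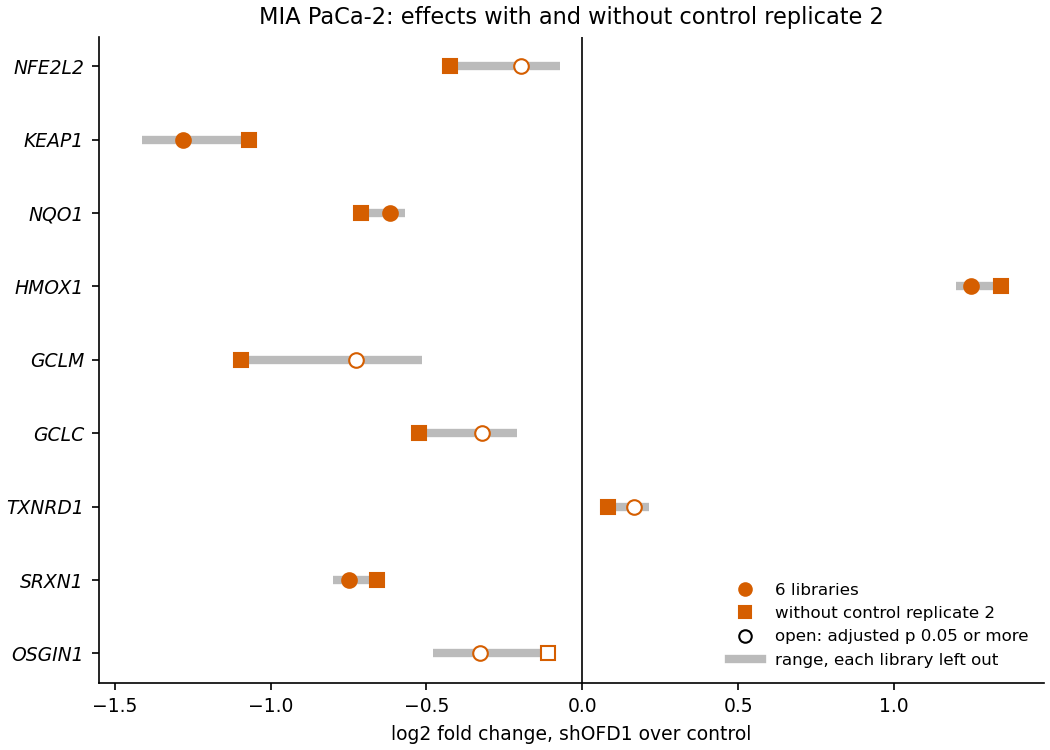
Log2 fold change of the 9 genes in MIA PaCa-2 (horizontal axis) with all 6 libraries (circles) and without control replicate 2 (squares), filled where the adjusted p is below 0.05, with grey bars for the range when each library was left out in turn. NFE2L2, GCLM, GCLC and TXNRD1 pass without that control and not with it, and GCLM moves from -0.72 to -1.10.

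Effects were then compared between lines as interaction terms in a limma fit of all 18 libraries over 9083 genes. Of the 27 differences (9 genes, 3 pairs of lines), 17 passed an adjusted p of 0.05. Across all genes, 43.4% differed between PANC-1 and MIA PaCa-2, 35.8% between PANC-1 and PaTu 8988T, and 52.9% between MIA PaCa-2 and PaTu 8988T. This fit takes 1 spread for all groups although the MIA PaCa-2 controls were wider. It was therefore repeated with a weight for each group, which called 19, and without control replicate 2, which called 22. The shares of all genes above belong to the first fit only. Those of the repeated fits are not given here, so 19 and 22 have no background beside them. The same 17 were called in all 3 fits.

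HMOX1 differed in every pair. Its log2 fold change in MIA PaCa-2 exceeded that in PaTu 8988T by 1.97 ± 0.10 SE (limma adjusted p = 4.52e-10), that in PANC-1 exceeded PaTu 8988T by 1.36 ± 0.10 SE, and PANC-1 minus MIA PaCa-2 was -0.61 ± 0.10 SE. For KEAP1, MIA PaCa-2 minus PaTu 8988T was -1.33 ± 0.18 SE and PANC-1 minus MIA PaCa-2 was 0.88 ± 0.18 SE. SRXN1 followed the same pattern, with -0.76 ± 0.086 SE and 0.65 ± 0.086 SE, and for both genes PANC-1 and PaTu 8988T were not called different (KEAP1 -0.45, 95% interval -0.84 to -0.06, adjusted p = 0.067; SRXN1 -0.11, -0.29 to 0.08). With a weight for each group, limma's adjusted p for that KEAP1 difference was 0.00049, and without control replicate 2 of MIA PaCa-2 it was 0.00033. The larger falls of KEAP1 and SRXN1 were those of MIA PaCa-2.

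GCLM fell more in PANC-1 than in PaTu 8988T by -1.31 ± 0.29 SE (limma adjusted p = 0.0022). Against MIA PaCa-2 the difference was -0.77 ± 0.29 SE (adjusted p = 0.041) and -0.40 without control replicate 2. NQO1 did not differ detectably between PANC-1 and MIA PaCa-2 (-0.11, 95% interval -0.29 to 0.08), and both fell more than PaTu 8988T, by -0.47 and -0.36. NFE2L2 and OSGIN1 differed between PANC-1 and PaTu 8988T (-0.73 and -0.76). GCLC in PaTu 8988T differed from PANC-1 (-0.46, called in 3 of 18 fits that left out 1 library) and MIA PaCa-2 (-0.50), and TXNRD1 in PANC-1 differed from both (-0.35 and -0.26).

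Some members moved together over the 18 libraries when each was set against the control mean of its line. These correlations describe 18 libraries of 6 groups that share library and line effects. KEAP1 and SRXN1 had r = 0.97, NQO1 and GCLM 0.91, and NFE2L2 had 0.90 with GCLM and 0.89 with GCLC. HMOX1 was negative with KEAP1 (-0.83), GCLC (-0.83) and SRXN1 (-0.79). Among 9083 genes, the most like HMOX1 were RAP2B (r = 0.995), a small GTPase, NDRG1 (0.987), a hypoxia and stress gene, and NICN1 (0.985). The most like GCLM were TOP2A (0.992), topoisomerase II alpha of dividing cells, PRRC1 (0.992) and ASXL2 (0.992), and the most like KEAP1 were TRIM28 (0.986), TCF25 (0.984) and CRELD2 (0.984). NFE2L2 was most like GLRX3 (0.988), a glutaredoxin, and NQO1 most like ARL6IP1 (0.995). SRXN1 was most like EIF4A3 (0.992), OSGIN1 like EEFSEC (0.957), TXNRD1 like UGCG (0.966) and GCLC like ZWILCH (0.958).

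The wider pathway was read from a list of 59 genes. In PANC-1, 24 of 47 tested fell and 12 rose (32.2% and 40.1% of all genes), and the median log2 fold change was -0.11 against 0.06 for all genes. The falls beyond 2-fold were SLC7A11, the cystine carrier that feeds glutathione synthesis (7.70 ± 0.135 to 2.33 ± 0.157 FPKM, -1.69), PIR, an iron-binding protein (12.1 to 4.07 FPKM, -1.56), and ABCC1, an exporter of glutathione conjugates (65.9 ± 0.165 to 28.6 ± 0.654 FPKM, -1.20). Of 6 genes that supply NADPH, the reducing power of the system, 5 fell, including ME1 (-0.70), TKT (-0.57) and PGD (-0.54), and IDH1 rose (0.76). In MIA PaCa-2, 2 of these 6 rose, IDH1 (0.70) and PGD (0.25), and 1 fell, with a median of 0.21, and in PaTu 8988T PGD rose (0.12) and the other members of the group did not pass. TRIM16L rose beyond 2-fold (1.62 to 4.11 FPKM, 1.30), but it is a near copy of TRIM16 and its reads are uncertain. MAFK, a small MAF partner of NRF2, rose (0.62). In the heme and iron group, the ferritin subunits FTH1 (0.46) and FTL (0.52), which store iron, rose, and BLVRB fell (-0.73).

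In MIA PaCa-2, 11 of 49 rose and 9 fell, shares near those of all genes (18.7% and 21.7%), with a median of 0.09 against -0.03 for all genes. The 3 rises beyond 2-fold were MAFF, a stress-induced small MAF (7.19 ± 1.56 to 20.0 ± 0.353 FPKM, 1.49), BACH1 (4.78 ± 1.67 to 11.2 ± 0.598 FPKM, 1.27) and ABHD4 (9.71 to 22.4 FPKM, 1.21). BACH1 rose by 0.95 without control replicate 2. This repressor of HMOX1 also rose in PANC-1 (0.47) and fell in PaTu 8988T (-0.23, limma adjusted p = 0.020), the same directions as HMOX1. CBR3, a carbonyl reductase, fell beyond 2-fold (13.9 to 6.46 FPKM, -1.09), and its relative CBR1 (-0.77) and CUL3, the ligase scaffold used by KEAP1 (-0.74), fell below that. FTH1 (0.86) and FTL (0.64) rose here too. Without control replicate 2, 25 of the 49 rose and 18 fell, against 35.4% and 39.8% of all genes.

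In PaTu 8988T, 14 of 46 fell and 8 rose (18.5% and 20.9% of all genes), 0 of them beyond 2-fold by limma, with 28 at an unadjusted p under 0.05 and a median of -0.05 against 0.03. The largest falls were PANX2, a channel protein (3.36 to 1.75 FPKM, -0.92), ABCB6, a porphyrin transporter (12.2 to 6.71 FPKM, -0.85), and TSKU (-0.73), and the largest rises SLC3A2, the partner chain of SLC7A11 (75.3 to 106 FPKM, 0.50), MAFK (0.44) and SLC48A1, a heme transporter (0.36). FTH1 (-0.10) and FTL (-0.12) did not pass. BLVRB fell in this line as in PANC-1 (-0.55). In MIA PaCa-2, BLVRB did not pass (0.11), and it rose by 0.27 when control replicate 2 was left out. SLC7A11, which fell in PANC-1, did not pass in PaTu 8988T (0.27, limma adjusted p = 0.051) or MIA PaCa-2 (0.64, limma adjusted p = 0.089). In MIA PaCa-2 its mean was low, at 0.909 FPKM in controls and 1.41 FPKM after knockdown. Without control replicate 2, SLC7A11 rose there (0.34, limma adjusted p = 0.022). Of the 43 genes of the list tested in all lines, ABCC1 and CBR1 passed the adjusted p with a fall in all 3, and 0 passed with a rise in all 3. The shares of all genes that did so are not given here, so these counts have no background beside them.

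**Figure D4:**
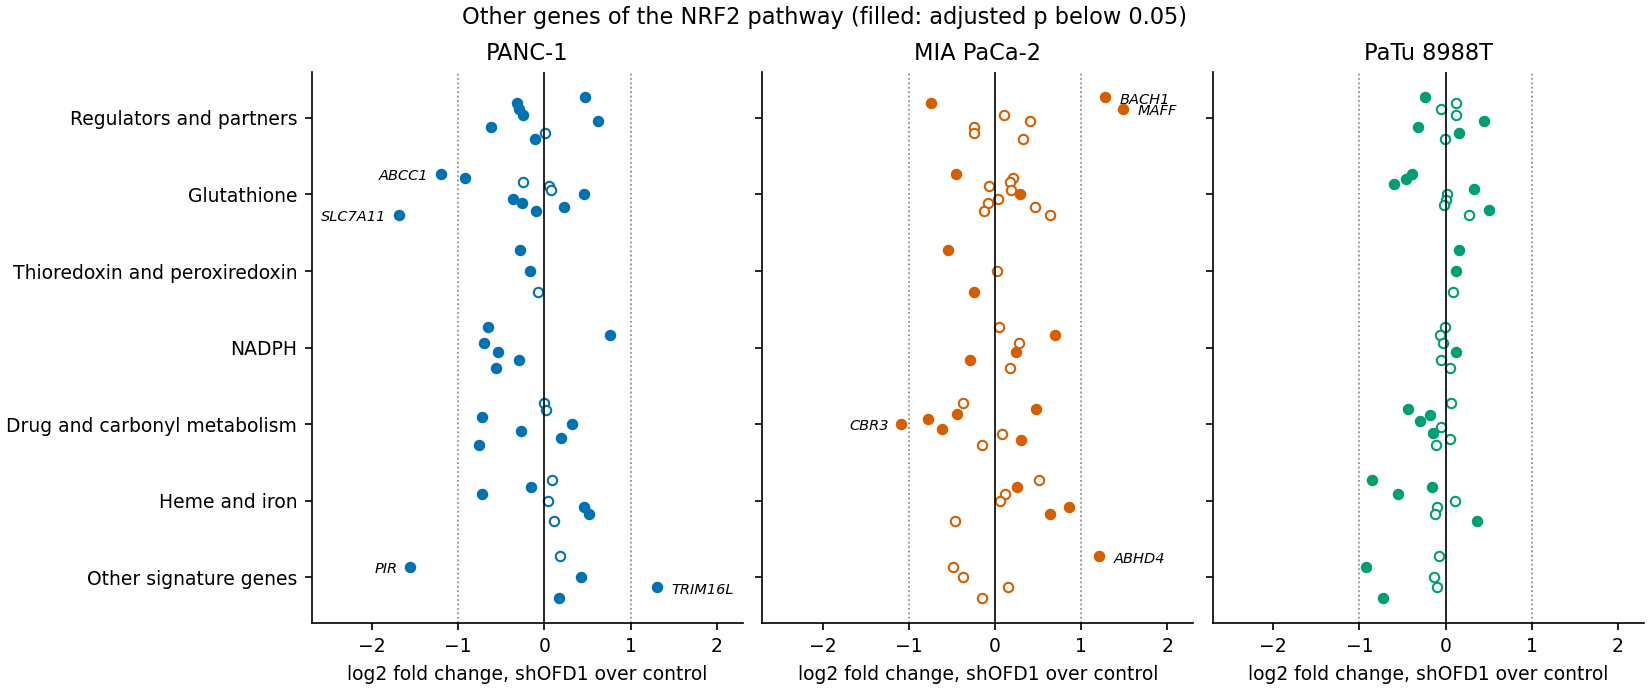
Log2 fold change of shOFD1 over control (horizontal axes) for the tested genes of the wider NRF2 list, by group, in each line, filled where the adjusted p is below 0.05, with dotted lines at 2-fold and names for genes beyond it. In PANC-1, 5 of the 6 NADPH genes lie to the left of 0, and no gene passes 2-fold in PaTu 8988T.

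Antioxidant genes that are not usually counted as NRF2 targets were read from a list of 18, all tested in each line. In PANC-1, 8 rose and 6 fell, shares near those of all genes (40.1% and 32.2%), the largest being GLRX5 (0.38), a mitochondrial glutaredoxin, and SOD2 (0.37), the mitochondrial superoxide dismutase, upward and SOD1 (-0.42), the cytosolic one, and CAT (-0.41), catalase, downward. In MIA PaCa-2, 5 rose, led by PRXL2A (0.83) and PRDX5 (0.69), and 1 fell (PRDX4, -0.57), where 18.7% and 21.7% of all genes did. Leaving out control replicate 2 gave 10 higher and 6 lower, against 35.4% and 39.8% of all genes. In PaTu 8988T, 7 rose, led by GLRX2 (0.31) and PRDX3 (0.29), and 2 fell, CAT (-0.27) and PRXL2A (-0.20), where 20.9% and 18.5% of all genes did. By limma, 0 of the 18 moved beyond 2-fold in any line, with 14, 6 and 10 at an unadjusted p under 0.05 in PANC-1, MIA PaCa-2 and PaTu 8988T.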

How the data were processed

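The authors mapped reads with HISAT2, counted them per gene with HTSeq-count and deposited 1 table of FPKM values for 18 libraries. The labels and the study's methods name different RNA and library kits, and strandedness is not given in the sources used here. Whole reads and gene lengths were recovered from the FPKM values to give depth. Counts were not used for tests. Within each line, genes with a mean of at least 1 FPKM were kept, and log2(FPKM + 0.1) was fitted with limma 3.58.1 (R 4.3.3, eBayes with trend, Benjamini-Hochberg). The call was an adjusted p below 0.05, and 2-fold (above 2 or below 0.5) was named apart. Fold changes on this scale understate those of low genes. Differences between lines were contrasts in 1 fit of all libraries. The steps were tested on simulated data. The members and lists were chosen with earlier results of these data known. Named list genes were those past 2-fold in any line and, per line, the 3 largest rises and falls (2 for the other antioxidant genes) among called genes without overlap. FTH1, FTL, BLVRB and the NADPH genes were named after their values were seen. The 3 most similar genes per member were ranked by Pearson's r. The smallest p an exact permutation test allows is 0.1. Figures were drawn with matplotlib.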

Additional observations from a re-analysis of the deposited data

Results flagged for a closer look

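The knockdown effect on a member differed between lines, by limma's interaction test, in 17 of 27 comparisons. On the log2 scale, as the first line minus the second, PANC-1 minus PaTu 8988T was -0.73 for NFE2L2, -0.47 for NQO1, 1.36 for HMOX1, -1.31 for GCLM, -0.46 for GCLC, -0.26 for TXNRD1 and -0.76 for OSGIN1. PANC-1 minus MIA PaCa-2 was 0.88 for KEAP1, -0.61 for HMOX1, -0.77 for GCLM, -0.35 for TXNRD1 and 0.65 for SRXN1. MIA PaCa-2 minus PaTu 8988T was -1.33 for KEAP1, -0.36 for NQO1, 1.97 for HMOX1, -0.50 for GCLC and -0.76 for SRXN1.

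Of these, 13 were called whichever of the 18 libraries was left out. GCLM between PANC-1 and MIA PaCa-2 was called in 7 of the 18 such fits, GCLC between PANC-1 and PaTu 8988T in 3, GCLC between MIA PaCa-2 and PaTu 8988T in 15, and OSGIN1 between PANC-1 and PaTu 8988T in 14.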

How the results depend on the processing

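Alternatives were a pseudocount of 1 or 0.01, no filter or a mean of at least 5 FPKM, libraries shifted to the same median (a shift of at most 0.04 in the median log2 fold change), no variance trend, 1 fit of all 18 libraries, the replicate block, each library left out, and, chosen after seeing the data, a weight for each group. Of 415 fold changes within a line under an alternative, 389 kept direction and side of the threshold, 13 fell short of it, 11 newly passed and 2 reversed. Of 696 differences between lines, these counts were 643, 38, 11 and 4.

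In PANC-1, the wider list had 7 genes beyond 2-fold with no filter (4 with it), and 0 members were beyond 2-fold at 5 FPKM, since GCLM was then not tested. In 1 fit of all libraries, 7 members passed in PANC-1 (9 in its own fit), 7 in MIA PaCa-2 (4) and 2 in PaTu 8988T (4), where 14 wider genes passed (22). The shares of all genes that passed in the fit of all libraries are not given here. OFD1 in MIA PaCa-2 was at -0.61 with an adjusted p of 0.050 with no filter. Leaving out each library gave 1 to 2 members beyond 2-fold in PANC-1 (2 without knockdown replicate 3), 4 to 8 members and 11 to 43 wider genes passing in MIA PaCa-2, -0.76 to -0.52 for OFD1 in MIA PaCa-2, and 0 to 1 wider genes beyond 2-fold in PaTu 8988T (1 without knockdown replicate 2). The reversed values, none called, were the GCLC difference PANC-1 minus MIA PaCa-2 (0.041, but -0.029 with the same median, and -0.073 to 0.24 with a library left out), OSGIN1 in PaTu 8988T (-0.075, and -0.15 to 0.031, positive without control 3) and SRXN1 in PaTu 8988T (0.0072, and -0.029 to 0.030, negative without knockdown 2). Apart from those stated, the causes were not tested.

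Replicate numbers did not pair the samples (correlations of same-numbered deviations -0.11 to 0.13). With the replicate block, 13 wider genes passed in MIA PaCa-2 (20 without), no count of members moved past 1.5 times, and the differences of GCLM between PANC-1 and MIA PaCa-2 and of GCLC between PANC-1 and PaTu 8988T lost their call. OSGIN1 in PANC-1 rested on as few as 93 reads in a library, which limits the precision of its change.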
